A study of Mus musculus with 12 samples.

Results

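Kit and 8 other receptor genes of early blood cells were followed through 12 lists of chromatin immunoprecipitation sequencing (ChIP-seq) peaks, made for 3 histone marks, H3K27ac, H3K4me1 and H3K4me3. The 9 genes were taken by name (Kit, Flt3, Csf3r, Csf2rb, Csf2ra, Il6ra, Il3ra, Tek and Procr), out of 21887 protein-coding genes of unique symbol in the RefSeq table of GRCm38.p6, the assembly also called mm10. A gene's window was its annotated body with 10 kb on each side. Every library came from cKit+ cells of the bone marrow of C57BL/6 mice, sorted on a flow cytometer. Wild type mice (WT) carried no transgene by label, and the other group (Tg) carried Phf6R274X as a transgene, whose promoter the labels used here do not name. Each genotype had 2 libraries per mark, and the design text gives 2 mice per genotype. The labels give no treatment, age or sex.

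Kit and Flt3 are receptor tyrosine kinases that bind stem cell factor and Flt3 ligand and carry survival and growth signals in stem and progenitor cells. Tek, also called Tie2, is the receptor tyrosine kinase for angiopoietins on endothelium and some blood stem cells. Csf3r, Csf2ra, Csf2rb, Il3ra and Il6ra are chains of type I cytokine receptors, which have no kinase of their own and signal through bound JAK kinases and STAT factors. Procr binds protein C on endothelium and is used as a surface marker of blood stem cells. H3K4me3 marks active or poised promoters, H3K27ac marks active promoters and enhancers, and H3K4me1 lies over enhancers and beside promoters.

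Several facts of the libraries touch the results. Peaks covered 45.7 and 36.6 Mb in the WT and 28.5 and 33.8 Mb in the Tg H3K27ac libraries, replicate 1 first. The H3K4me1 replicate 2 libraries were the broader ones in both genotypes, with 120 Mb in WT and 117 Mb in Tg against 66.3 and 70.7 Mb in replicate 1. H3K4me3 covered 38.3 to 43.6 Mb. In the 4 H3K4me3 lists, peaks are named for the other genotype than the one on the label, and in the remaining 8 lists names and labels match in genotype. Each H3K4me3 direction below follows the label and turns over if the names are right. Phf6 itself held 7 and 5 H3K4me3 peaks under the WT label against 1 and 1 under the Tg label, and 1 H3K27ac peak in every library. Its H3K4me1 peaks numbered 0 and 1 in WT against 1 and 6 in Tg. A native copy and a transgene cannot be told apart in these lists. The replicate 1 H3K4me3 libraries of both labels had peaks at 4 of 4 Y-linked genes, and the other 10 libraries at 0, so replicate number and sex went together in that mark. Read depth is unknown, because the lists hold no read counts. In a bulk sort, a change in the mix of cells and a change within each cell cannot be told apart.

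At the transcription start, 7 of the 8 members with a RefSeq promoter entry had H3K4me3 in all 4 libraries, and the start of Tek had it in 0. Over 17492 protein-coding genes with a RefSeq start, 55.1% had H3K4me3 there in all 4 libraries. H3K27ac covered the start in all 4 libraries at Csf3r, Csf2ra, Il6ra and Il3ra, in 3 at Kit and Flt3, and in 0 at Tek and Procr, with all 4 at 33.9% of genes. The start of Procr was the only one of the 8 under H3K4me1 in all 4 libraries, a state of 2.78% of genes, and Flt3 had it in 2. Procr thus carried H3K4me3 in 4 libraries and H3K27ac in 0, a pair found at 10.2% of genes.

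The promoters of 5 members are printed because their marks differ most: Kit with a very broad H3K4me3 peak, Csf2ra and Il3ra with the strongest H3K27ac of the set, Procr with H3K4me3 but no H3K27ac, and Tek with no peak over its start. Sequences are from RefSeq, build GRCm38.p6, 250 bases before to 50 after the annotated start, written in the direction of transcription. Capitals mark matches, on either strand, to 6 motifs of blood transcription factors. For GATA factors, which act in stem and erythroid cells, the letters searched were AGATAA. For the ETS family, which includes the myeloid factor PU.1, they were GAGGAA. RUNX factors were searched as TGTGGT, and the E-box bound by helix-loop-helix factors as CANNTG. For the C/EBP family of granulocyte factors the letters were TTGCNNAA, and for STAT factors, which carry cytokine signals, TTCNNNGAA. Coordinates are 1-based.
Kit promoter, chr5:75574737-75575036, plus strand: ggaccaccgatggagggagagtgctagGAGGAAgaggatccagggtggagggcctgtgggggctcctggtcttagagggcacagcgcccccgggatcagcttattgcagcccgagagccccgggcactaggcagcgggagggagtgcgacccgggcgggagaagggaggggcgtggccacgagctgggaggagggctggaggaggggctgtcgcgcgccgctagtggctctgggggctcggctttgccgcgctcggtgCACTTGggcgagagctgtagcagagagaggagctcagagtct
Csf2ra promoter, chr19:61228369-61228668, minus strand: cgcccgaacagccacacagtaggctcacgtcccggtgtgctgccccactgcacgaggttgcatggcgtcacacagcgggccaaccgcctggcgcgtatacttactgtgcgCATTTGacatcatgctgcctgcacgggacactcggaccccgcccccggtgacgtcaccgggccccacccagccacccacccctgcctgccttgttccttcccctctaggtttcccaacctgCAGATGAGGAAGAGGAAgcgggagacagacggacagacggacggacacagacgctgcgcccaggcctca
Il3ra promoter, chr14:14346245-14346544, plus strand: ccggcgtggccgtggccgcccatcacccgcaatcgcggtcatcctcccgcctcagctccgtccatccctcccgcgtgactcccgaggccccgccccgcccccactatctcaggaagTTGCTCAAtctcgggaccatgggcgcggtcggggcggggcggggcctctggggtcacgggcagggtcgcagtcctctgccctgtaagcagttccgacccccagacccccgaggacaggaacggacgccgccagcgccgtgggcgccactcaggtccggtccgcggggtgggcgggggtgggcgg
Tek promoter, chr4:94739039-94739338, plus strand: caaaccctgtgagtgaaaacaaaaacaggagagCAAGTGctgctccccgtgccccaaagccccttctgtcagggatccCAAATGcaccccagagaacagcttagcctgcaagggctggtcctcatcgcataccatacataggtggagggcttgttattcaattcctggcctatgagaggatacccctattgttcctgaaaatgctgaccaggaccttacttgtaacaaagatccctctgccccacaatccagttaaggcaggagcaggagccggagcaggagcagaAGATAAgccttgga
Procr promoter, chr2:155750967-155751266, plus strand: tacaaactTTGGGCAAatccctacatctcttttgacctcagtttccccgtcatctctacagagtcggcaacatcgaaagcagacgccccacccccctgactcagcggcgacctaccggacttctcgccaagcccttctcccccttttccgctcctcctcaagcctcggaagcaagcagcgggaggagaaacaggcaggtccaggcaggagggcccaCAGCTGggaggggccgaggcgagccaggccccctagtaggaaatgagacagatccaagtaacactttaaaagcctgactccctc

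Counting the start base as 0, Kit had an ETS match beginning at -223 and an E-box at 8. Csf2ra had ETS matches at -14 and -8 behind E-boxes at -140 and -19, the latter sharing 1 base with the first ETS match. Il3ra had a C/EBP match at -134, Tek had a GATA match at 36 with E-boxes at -217 and -172, and Procr had a C/EBP match at -242 with an E-box at -34. Of the members not printed, Flt3 had E-boxes at -245 and 3, and Csf3r had an ETS match at -86. Il6ra had a GATA match at -245, an ETS match at -70 and E-boxes at -192, -65, -24 and -18. No RUNX or STAT match fell in these 8 windows. Among all 17492 promoters, 9.96% held the GATA, 27.5% the ETS, 15.1% the RUNX, 68.8% the E-box, 10.1% the C/EBP and 7.83% the STAT letters. A match describes the letters and is not a binding site.

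CpG content differed widely between these promoters. Il3ra had 35 CpG in 300 bases, more than 91.3% of all promoters, and Tek had 3, more than 19.2%. Kit had 20, Csf2ra 23, Il6ra 25, Flt3 18, Procr 13 and Csf3r 9, against a median of 13 over all promoters.

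The marks ranked the 9 genes differently. As a share of the window covered by peaks, mean ± SD over the 4 libraries of a mark, H3K27ac was highest at Il3ra (19.1% ± 6.54), Csf3r (14.0% ± 6.43) and Csf2ra (12.9% ± 1.18). Csf2rb followed with 9.25% ± 2.38, then Il6ra with 4.82% ± 1.42, Flt3 with 3.28% ± 0.993 and Kit with 3.22% ± 1.54. Neighbours in this order overlapped over libraries, except between Csf2rb and Il6ra and between Kit and the 0% of Tek and Procr. Il3ra stood above 96.2% of all genes and Kit above 59.7%.

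H3K4me1 put Csf3r (34.8% ± 12), Csf2rb (34.1% ± 7.72), Kit (23.2% ± 8.82) and Il6ra (22.7% ± 6.81) first, with libraries that overlapped between neighbours. Procr (11.2% ± 1.78), Flt3 (9.40% ± 3.61) and Csf2ra (8.97% ± 3.07) lay below them, Il3ra had 1.56% ± 1.36 and Tek 0.0377%, from a single 235 bp peak. By share, Il3ra thus stood first of the 9 in H3K27ac and next to last in H3K4me1. Windows ran from 24.35 kb at Procr to 155.9 kb at Tek, so the order of shares depends on gene length. In covered length, H3K4me1 was wider at Kit than at Csf3r and Csf2rb in every library. For H3K27ac, Csf3r had more covered length than Il3ra in both WT libraries and less in both Tg libraries. H3K4me3 was highest at Csf3r (18.2% ± 1.59), which overlapped no other member when its full window was counted. That window takes in chr4:126046465-126048762, a region over the left end of the neighbouring gene Mrps15. Peaks there ranged from 1492 to 2183 bp per library. Without this region Csf3r would no longer stand clear of Csf2rb. In Tg replicate 2 the region held 1748 of the 6947 bp covered at Csf3r. Those 6947 bp were 16.7% of the window, against 15.5% at Csf2rb in WT replicate 1. H3K4me3 then ran from Csf2rb (11.3% ± 3.10) and Csf2ra (9.87% ± 1.11) through Il6ra (7.21% ± 0.894) and Il3ra (5.97% ± 0.906). Kit (5.67% ± 0.423), Procr (3.89% ± 1.18), Flt3 (3.57% ± 0.945) and Tek (0.297% ± 0.0975) came last, in that order.

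**Figure D1:**
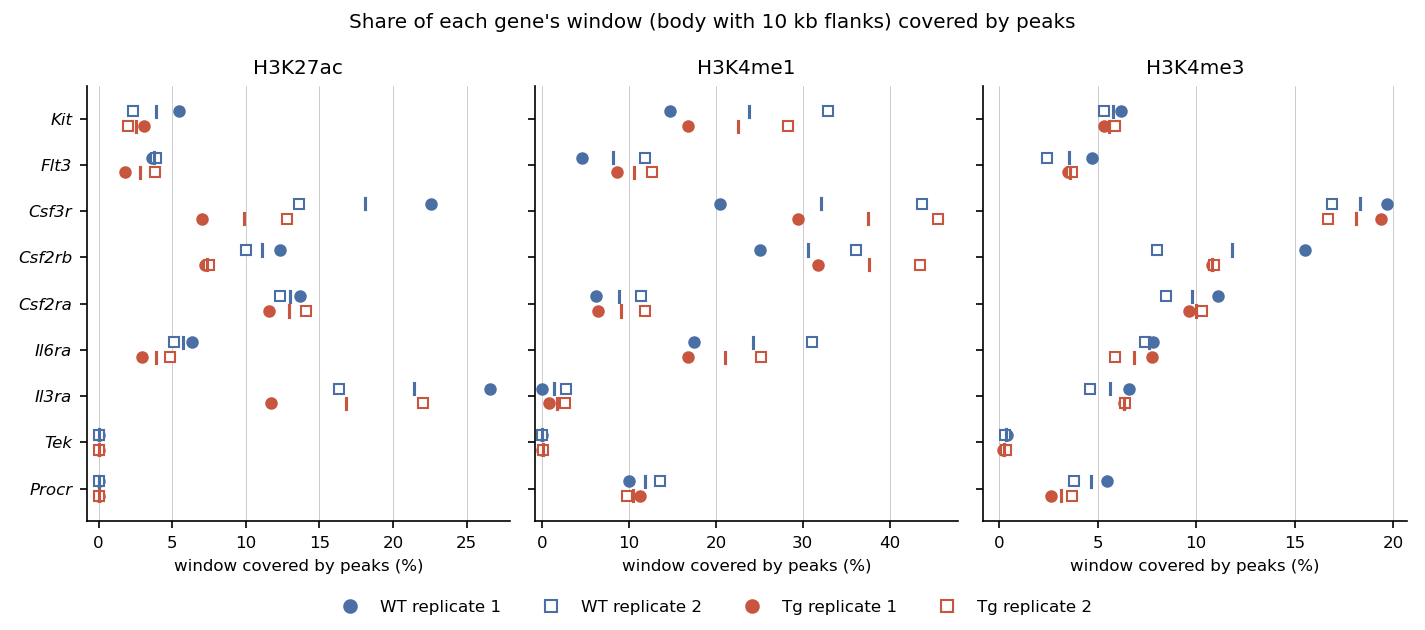
Share of each gene's window covered by peaks (x axis, percent) for H3K27ac, H3K4me1 and H3K4me3; circles are replicate 1, squares replicate 2, blue WT, red Tg, and short bars the mean of each genotype. H3K27ac was 0% at Tek and Procr in every library and 19.1% on average at Il3ra, and in H3K4me1 the squares lie to the right of the circles at 7 of the 8 members tested.

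Kit lies on chromosome 5 from 75574987 to 75656722, a body of 81.7 kb. H3K27ac covered 5.53 and 2.40 kb of its window in WT and 3.11 and 2.05 kb in Tg, replicate 1 first in each pair. The WT replicate 1 library was highest and the groups overlapped. The log2 change, Tg minus WT, was -0.20 ± 0.37 (SE), with a 95% interval of -1.11 to 0.71 (limma adjusted p = 0.850).

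H3K4me1 was the widest mark at Kit, with 15.0 and 33.4 kb in WT and 17.1 and 28.8 kb in Tg. Both replicate 2 libraries exceeded both replicate 1 libraries, as they did at 87.3% of all 16134 genes tested in that mark. H3K4me3 covered 6.28 and 5.43 kb in WT and 5.39 and 5.96 kb in Tg. The groups overlapped in both marks, with log2 changes of -0.02 ± 0.25 and -0.04 ± 0.09 (limma adjusted p = 0.987 and 0.962). For H3K4me3 the 95% interval ran from -0.29 to 0.21, the narrowest at Kit.

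The start of Kit lay in 1 H3K4me3 region with a merged width of 5.90 kb, chr5:75574229-75580128, found in all 4 libraries and wider than 99.2% of merged H3K4me3 regions. It reached 758 bp before and 5141 bp after the start. Peaks covered 5900 and 5427 bp of it in the WT libraries, against 4498 and 5138 bp in the Tg libraries by label. Both replicate 2 libraries had 2 peaks there, the wider 4964 bp in WT and 4746 bp in Tg. H3K27ac shared by all 4 libraries was confined within the window to chr5:75574589-75577044, 2.46 kb wide. The other 6 H3K27ac regions at Kit were each missing in at least 1 library. One of these, chr5:75632664-75634288, lay in the gene over 50 kb from the start and had 1427 and 449 bp of peaks in WT, 681 bp in Tg replicate 1 and 0 in Tg replicate 2.

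H3K4me1 left the start base of Kit free. A shared region of 7.14 kb, chr5:75575978-75583121, began 991 bp downstream, within the H3K4me3 region, and a second of 8.58 kb, chr5:75594079-75602655, began 19.1 kb downstream, where no H3K27ac or H3K4me3 peak was listed. Their widths exceeded those of 99.3% and 99.7% of merged H3K4me1 regions. Another shared region, chr5:75632145-75635748, began 57.2 kb downstream and held the incompletely shared H3K27ac region that began at 57.7 kb. Within Kit's window 8 of 30 H3K4me1 regions were present in all 4 libraries.

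**Figure D2:**
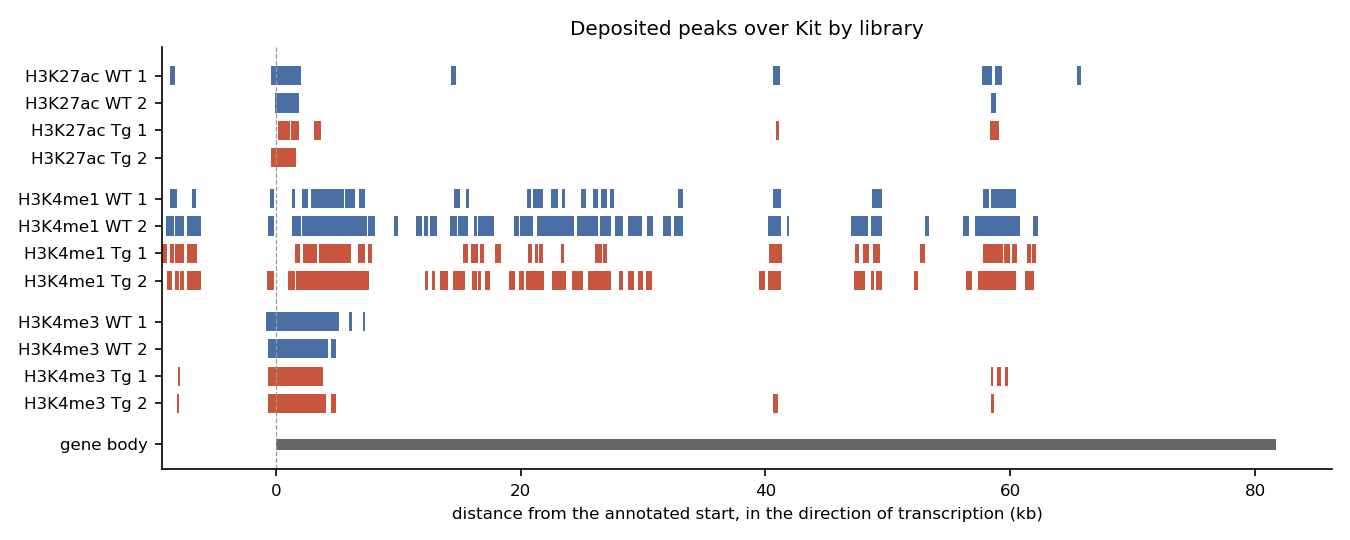
Deposited peaks over Kit in each of the 12 libraries (rows, blue WT, red Tg), against distance from the annotated start in kb in the direction of transcription; the grey bar is the gene body and the dashed line the start. The H3K4me3 peak at the start is 5900 bp wide in WT replicate 1 and 4498 bp in Tg replicate 1. The merged H3K4me1 region shared by all 4 libraries begins 991 bp after the start, with a peak of Tg replicate 2 alone. It begins inside the H3K4me3 region and extends into the gene body as several peaks per library.

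Flt3 lies on chromosome 5 from 147330741 to 147400489 and is read from the right end. H3K27ac covered 3.23 and 3.5 kb in WT and 1.62 and 3.42 kb in Tg, with Tg replicate 1 low and Tg replicate 2 near the WT libraries. The log2 change was -0.16 ± 0.26 (limma adjusted p = 0.835). H3K4me1 covered 4.16 and 10.6 kb in WT and 7.74 and 11.3 kb in Tg. The groups overlapped, with a log2 change of 0.48 ± 0.25, a 95% interval of -0.15 to 1.11 and a limma adjusted p of 0.652. H3K4me3 at 4.23, 2.16, 3.12 and 3.32 kb, in the same order, overlapped as well (log2 change 0.08 ± 0.25, limma adjusted p = 0.974).

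Inside Flt3, 2 merged regions had peaks of all 3 marks in all 4 libraries of each. They were the H3K27ac regions chr5:147392819-147393575, 6.91 kb after the start, and chr5:147388667-147389616, 10.9 kb after it. In the latter, the WT replicate 2 H3K27ac peak lay 10873 to 11249 bp after the start. It overlapped neither Tg peak, at 11470 to 11822 bp in replicate 1 and 11311 to 11715 bp in replicate 2. The start itself lay in H3K4me3 in 4 libraries and in H3K27ac in 3, with Tg replicate 1 the exception. Near the far end, 60.1 kb from the start, chr5:147339839-147340356 held 478 and 419 bp of H3K27ac in WT and 0 in both Tg libraries. Its peaks ranked at the 22.9 and 33.7 percentiles of the deposited −log10 q-values within their own lists, and the adjoining region 58.7 kb from the start, chr5:147340375-147341769, had 1163 and 1204 bp of H3K27ac in WT, 0 in Tg replicate 1 and 925 bp in Tg replicate 2. H3K4me1 was present there in all 4 libraries.

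**Figure D3:**
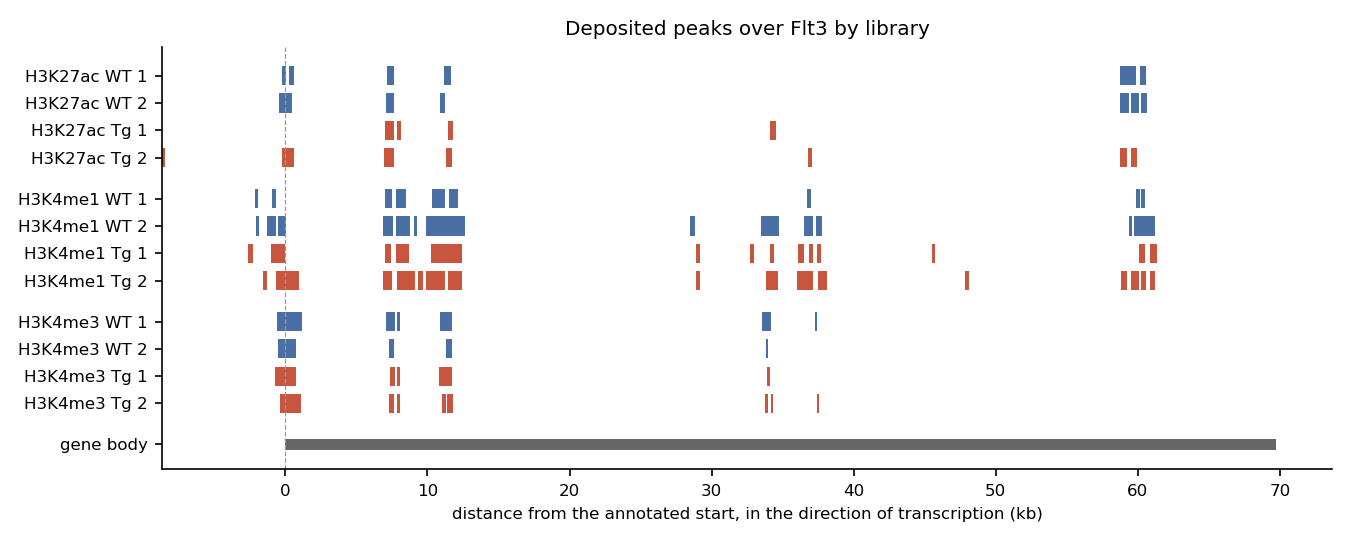
Deposited peaks over Flt3 in each of the 12 libraries (rows, blue WT, red Tg), against distance from the annotated start in kb in the direction of transcription; the grey bar is the gene body and the dashed line the start. The clusters 6.91 and 10.9 kb after the start appear in every library, the H3K27ac region 60.1 kb after the start is absent in both Tg libraries, and its neighbour at 58.7 kb is absent in Tg replicate 1 alone.

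Tek and Procr stood apart from the other 7 in having no H3K27ac peak in any library. In Tek (chromosome 4, 94739086 to 94874976, the longest member at 136 kb) a single H3K4me3 region, chr4:94739358-94739990, began 69 bp after the RefSeq start. It held 614 and 449 bp in WT against 258 and 529 bp in Tg by label, and the groups overlapped (log2 change 0.02 ± 0.08, limma adjusted p = 0.982). The direction depends on the normalization, with -0.21 after scaling to equal total covered length and -0.22 with no normalization. H3K4me1 was listed in Tg replicate 2 alone, so Tek was not tested there.

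Procr (chromosome 2, 155751125 to 155755478) carried H3K4me3 at its start in chr2:155750727-155751694, with 968 and 677 bp in WT against 637 and 894 bp in Tg. Over the window H3K4me3 covered 1.33 and 0.925 kb in WT and 0.637 and 0.894 kb in Tg. Both libraries labelled Tg were below both labelled WT, with a log2 change of -0.24 ± 0.11, a 95% interval of -0.52 to 0.04 and a limma adjusted p of 0.922. A second small region 7.95 kb before the start, chr2:155742900-155743264, had 365 and 248 bp in WT and 0 in Tg. H3K4me1 covered 2.43 and 3.32 kb in WT and 2.74 and 2.38 kb in Tg, with 2 of its 3 regions shared by all 4 libraries, and overlapped between genotypes (log2 change -0.08 ± 0.39, limma adjusted p = 0.975).

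Among the cytokine receptor chains, Csf3r, the receptor for granulocyte colony-stimulating factor (chromosome 4, 126023441 to 126044975), had the largest H3K27ac difference of the 9 genes. Peaks covered 9.37 and 5.63 kb in WT and 2.91 and 5.31 kb in Tg. Both Tg libraries lay below both WT libraries, with Tg replicate 2 only just so. The log2 change was -0.45 ± 0.26, with a 95% interval of -1.09 to 0.19 (limma adjusted p = 0.522). Leaving out 1 library at a time moved it between -0.74 and -0.16.

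Markers of mature granulocytes, which also use Csf3r, are given beside this value. Their summed H3K27ac before normalization was 121 and 123 kb in WT and 63.7 and 59.2 kb in Tg. Mean covered length before normalization was lower in Tg at 81.8% of all genes tested in this mark. Of the 11 markers, 10 had a lower H3K27ac estimate in Tg, beside 44.6% of all genes tested, 1 fell past the limma threshold and none was at 0. In the other marks most estimates of the same 11 were higher in Tg, 9 in H3K4me1 (median 0.26) and by label 11 in H3K4me3 (median 0.42), and none was called. Their summed H3K4me3 was 62.0 and 61.8 kb in WT against 101 and 66.1 kb in Tg. The part of mature granulocytes in the Csf3r value was not tested. In H3K27ac, 5 of 7 tested monocyte and macrophage markers had lower estimates in Tg, and 7 of 10 stem and progenitor markers higher ones. H3K4me1 at Csf3r, 8.52 and 18.2 kb in WT and 12.2 and 18.9 kb in Tg, overlapped between genotypes (log2 change 0.28 ± 0.22, limma adjusted p = 0.750). H3K4me3 overlapped too, at 8.18 and 7.01 kb in WT and 8.05 and 6.95 kb in Tg (log2 change -0.03 ± 0.09, limma adjusted p = 0.968).

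All 4 H3K27ac libraries shared 3 regions at Csf3r. One lay over the start, chr4:126023279-126026332, one 4.62 kb before it, chr4:126016304-126020042, and one beyond the gene at chr4:126046553-126047714. The last contained the left end of Mrps15, a gene for a mitochondrial ribosomal protein whose body reaches into the window. Covered length at the upstream region was 3739 and 2463 bp in WT against 955 and 1804 bp in Tg. Mrps15's own window changed by -0.38 ± 0.16 in H3K27ac (limma adjusted p = 0.405).

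Csf2rb, the signalling chain shared by the receptors for GM-CSF, IL-3 and IL-5 (chromosome 15, 78325800 to 78351001), had 5.55 and 4.52 kb of H3K27ac in WT and 3.26 and 3.39 kb in Tg. Both Tg libraries were lower, with a log2 change of -0.23 ± 0.16, a 95% interval of -0.62 to 0.15 and a limma adjusted p of 0.588. H3K4me1 covered 11.3 and 16.3 kb in WT and 14.3 and 19.7 kb in Tg, and H3K4me3 7.0 and 3.62 kb against 4.87 and 4.93 kb. Neither separated the genotypes (log2 changes 0.29 ± 0.20 and -0.04 ± 0.26, limma adjusted p = 0.730 and 0.986). The 4 H3K27ac regions shared by all libraries included chr15:78325306-78326853 over the annotated left end and chr15:78320948-78322326 outside it, which had H3K4me1 in 4 libraries and H3K4me3 in 0.

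Csf2rb2, a near-identical neighbouring copy that encodes an IL-3-specific chain, could share reads with Csf2rb, and how such reads were handled is not given in the sources used here. Its window held 1.36 and 0.899 kb of H3K27ac in WT and 0.266 and 1.0 kb in Tg. In H3K4me1 it had 2.83 and 8.91 kb in WT and 6.59 and 13.5 kb in Tg (log2 change 0.86 ± 0.31, limma adjusted p = 0.555). Values at both genes are therefore uncertain as to which copy they belong to.

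Csf2ra, the ligand-binding chain for GM-CSF (chromosome 19, 61217191 to 61228461), varied little in H3K27ac, with 4.29 and 3.85 kb in WT and 3.63 and 4.42 kb in Tg. The groups overlapped. The log2 change was 0.28 ± 0.15 after quantile normalization and -0.02 without it, so its direction depends on the normalization (limma adjusted p = 0.490). H3K4me1 at 1.95 and 3.58 kb in WT and 2.01 and 3.69 kb in Tg, and H3K4me3 at 3.46 and 2.65 kb against 3.0 and 3.23 kb, overlapped too (log2 changes 0.10 ± 0.20 and 0.06 ± 0.11).

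The H3K27ac peak over the Csf2ra start, chr19:61225553-61229305, ranked between the 96.6 and 99.5 percentiles of deposited −log10 q-values in every list. This was the strongest start of the set: at Kit the start region ranked between 53.1 and 67.8. A second H3K27ac region shared by all 4 libraries, chr19:61232060-61233009, lay 3.64 kb before the start and had H3K4me1 in 4 libraries and H3K4me3 in 0.

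Il3ra, the ligand-binding chain for IL-3 (chromosome 14, 14345912 to 14355493), had 7.87 and 4.82 kb of H3K27ac in WT and 3.45 and 6.52 kb in Tg. Replicates of 1 genotype differed as much as the genotypes, and the log2 change was 0.00 ± 0.27 (limma adjusted p = 0.996). H3K27ac was shared by all 4 libraries at the start (chr14:14345371-14348531) and at 2 further regions, chr14:14348684-14350524 within the gene and chr14:14354879-14356486 across its annotated right end. Neither of those 2 had an H3K4me3 peak in any library, and H3K4me1 was listed over them in 0 and 2 libraries. Il3ra was the only one of the 7 members with H3K27ac that had no H3K4me1 region common to all 4 libraries. Its H3K4me1 values were 0 and 0.804 kb in WT and 0.252 and 0.792 kb in Tg (log2 change 0.35 ± 0.21, limma adjusted p = 0.690). H3K4me3 at 1.95 and 1.37 kb in WT overlapped 1.87 and 1.88 kb in Tg (log2 change 0.19 ± 0.12, limma adjusted p = 0.922).

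Il6ra, the ligand-binding chain for IL-6 (chromosome 3, 89869324 to 89913196), held 4.07 and 3.28 kb of H3K27ac in WT and 1.88 and 3.08 kb in Tg. Both Tg libraries were lower, with a log2 change of -0.24 ± 0.18, a 95% interval of -0.68 to 0.20 and a limma adjusted p of 0.622. One H3K27ac region within the gene, chr3:89905258-89905898, had 506 and 641 bp in WT and 0 in Tg. H3K4me1 and H3K4me3 were present at that region in all 4 libraries. Over the window H3K4me1 gave 11.2 and 19.9 kb in WT and 10.7 and 16.1 kb in Tg, and H3K4me3 4.98 and 4.74 kb against 4.94 and 3.77 kb. Both overlapped between genotypes (log2 changes -0.17 ± 0.19 and -0.15 ± 0.13, limma adjusted p = 0.827 and 0.934).

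Across the 9 genes, limma called none in any mark at an adjusted p of 0.05, and 0 had an unadjusted p under 0.05. The test could be run on 7 members in H3K27ac, 8 in H3K4me1 and 9 in H3K4me3. Over all genes tested it called 52 of 13604 in H3K27ac (0.382%), of which 21 rose and 31 fell in Tg, with 1816 at an unadjusted p under 0.05. That count rests on the quantile normalization and on both WT libraries: it was 3, all lower in Tg, with scaling to equal total covered length, 1, also lower, with no normalization, and 0 without WT replicate 1 or without WT replicate 2. It called 0 of 16134 in H3K4me1 (0.0%), with 1357 at an unadjusted p under 0.05, and 0 of 16136 in H3K4me3 (0.0%), with 737. With 2 libraries a group the intervals are wide, and a p above the threshold does not show that the genotypes are alike. The median log2 change of the tested members was -0.20 in H3K27ac, 0.19 in H3K4me1 and -0.03 in H3K4me3, beside 0.03, 0.00 and 0.00 over all genes tested.

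**Figure D4:**
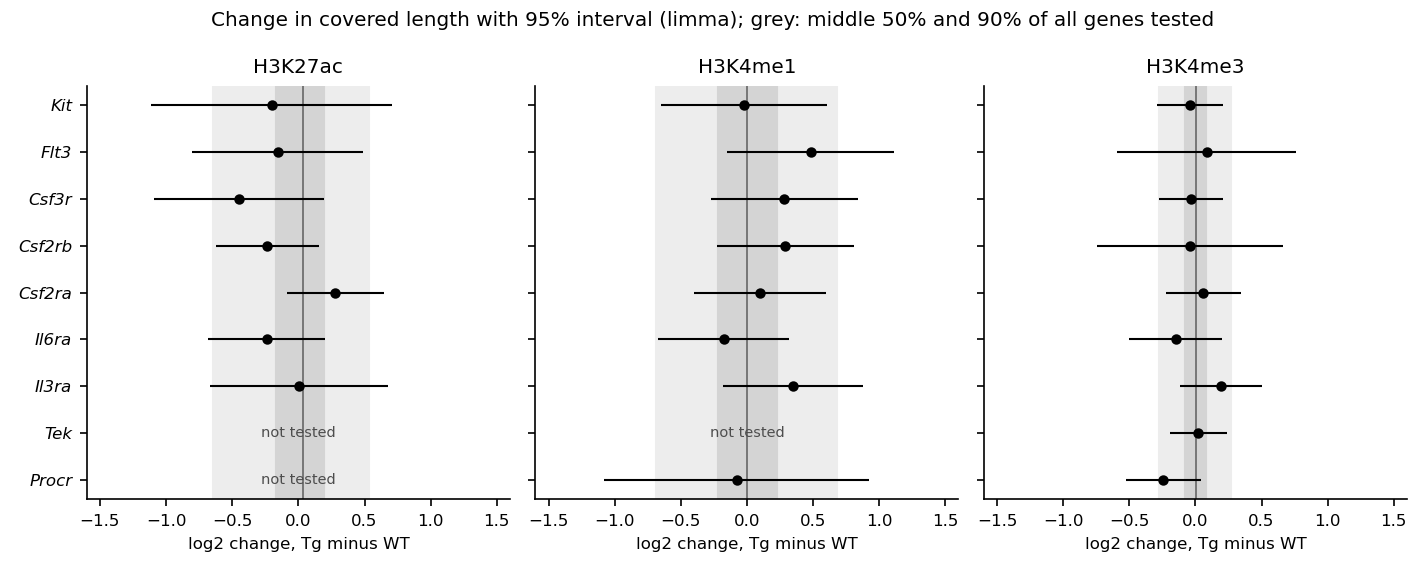
Log2 change in covered length, Tg minus WT (x axis), for each member and mark; points are limma estimates, lines their 95% intervals, and grey bands the middle 50% and 90% of all genes tested. Every interval includes 0, the lowest estimate is -0.45 for Csf3r in H3K27ac, and the highest is 0.48 for Flt3 in H3K4me1.

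The genotypes did not overlap in covered length at 3 of the 7 members in H3K27ac (Csf3r, Csf2rb and Il6ra, each lower in Tg), against 50.9% of all genes tested. They did not overlap at 0 of 8 in H3K4me1, against 8.97%, and at 1 of 9 in H3K4me3 (Procr, lower in the libraries labelled Tg), against 29.8%. Over all genes the libraries lay in much the same order. WT replicate 1 had the most H3K27ac at 5 of 7 members and at 64.5% of all genes, and Tg replicate 1 the least at 6 of 7 and at 65.4%. In H3K4me3, WT replicate 1 was highest at 9 of 9 members and at 53.8% of all genes.

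Regions shared by all libraries of a mark were about as frequent at the members as elsewhere. Peaks of the 4 lists of a mark were merged where they overlapped or touched. In H3K27ac 17 of 45 member regions (37.8%) had a peak in all 4 libraries, against 40.5% of all 48376 regions. In H3K4me1 these were 38 of 111 (34.2%), against 33.0% of 139885, and in H3K4me3 19 of 37 (51.4%), against 54.7% of 44957.

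Regions in both libraries of 1 genotype and in neither of the other were few. H3K27ac had 3 WT-only member regions, described above for Flt3 and Il6ra and lying at chr15:78326983-78327786 for Csf2rb, beside 4.9% of all regions, and 0 Tg-only, beside 1.94%. H3K4me1 had 3 WT-only regions, at Kit, Flt3 and Il6ra, beside 3.25%, and 2 Tg-only, at Flt3 and Csf3r, beside 1.97%. By label H3K4me3 had 1 WT-only region, at Procr, beside 2.24%, and 2 Tg-only, beside 1.47%. The latter were both at Kit and small: chr5:75566900-75567162, 7.83 kb before the start, with 172 and 162 bp, and chr5:75633411-75633657, inside the shared H3K4me1 region 57.2 kb after the start, with 187 and 247 bp.

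The 17 shared H3K27ac regions fell into 6 over a start, or over the annotated left end for Csf2rb, and 11 away from it. Away here means away from the member's own start: the region chr4:126046553-126047714 near Csf3r contained the left end of Mrps15. Of the 11, 9 had H3K4me1 in all 4 libraries of that mark. H3K4me3 was present in all 4 libraries at 7 of the 11, among them the region in the body of Il6ra, both in Flt3 and both outside the start at Csf3r. It was present in 0 libraries at 4, which lay at Csf2rb, Csf2ra and Il3ra. Kit had no shared H3K27ac region away from its start.

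Genes outside the windows were ranked by how closely their covered length followed each member over the 12 libraries, as the mean absolute difference in normalized log2 length. Among the 5 nearest to Kit were Rgl1 (0.19), Ambra1 (0.20), Map7 (0.22) and Mlxip (0.26). The single nearest gene was Lsp1 for Flt3, Grk6 for Csf3r, Cerk for Csf2rb, Nub1 for Csf2ra, Pnkd for Il6ra, Gm38510 for Il3ra, Fthl17d for Tek and Calml4 for Procr. Il3ra had the most distant nearest gene, at 0.35.

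The other genes of the pathway were read from a list of 81: 12 ligands, 20 other receptors, 11 kinases and STATs, 17 adaptors of the RAS and PI3K routes, 11 inhibitors and 10 targets. None passed the limma threshold in either direction in any mark, among 69 tested in H3K27ac, 78 in H3K4me1 and 78 in H3K4me3. At an unadjusted p under 0.05 there were 9, 5 and 3. Medians of the log2 change were 0.03, -0.02 and -0.01 in these marks.

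Of the 12 ligands, 7, among them Kitl, Csf2, Il3 and Il6, had no H3K27ac peak in any library, beside 7659 of all 21887 genes (35%). H3K4me3 was at 0 in all 4 libraries at 2 of the 12, Il3 and Epo, and Kitl, the gene of stem cell factor, had 1.56 and 1.47 kb of it in WT against 1.69 and 1.46 kb in Tg by label. Flt3l, the Flt3 ligand, had H3K27ac in every library, with 5.02 and 4.71 kb in WT and 3.13 and 4.83 kb in Tg. Csf2rb2, Epor, Csf1r and Il6st, read beside the members, carried every mark in every library. In H3K27ac, Epor, the erythropoietin receptor, had a log2 change of -0.16 ± 0.19, Csf1r of -0.05 ± 0.25 and Il6st, the signal chain of the IL-6 receptor, of 0.35 ± 0.14, with limma adjusted p of 0.776, 0.956 and 0.388.

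Of the downstream genes, 4 are named here that were chosen after their values were seen. All 9 tested targets had positive H3K27ac estimates after quantile normalization, with a median of 0.23, beside positive estimates at 55.4% of all genes, and none passed. Before normalization their mean covered length was lower in Tg at 5 of the 9, beside 81.8% of all genes tested. Ccnd2, a cell cycle cyclin among them, had 0.981 and 2.01 kb in WT and 3.68 and 2.62 kb in Tg (limma adjusted p = 0.296). Gab1, an adaptor that links receptors to PI3K, had 0.997 and 0.864 kb of H3K27ac in WT against 1.29 and 1.61 kb in Tg (log2 change 0.66 ± 0.15, limma adjusted p = 0.162). The kinase Jak1 had a log2 change of -0.77 ± 0.43 (limma adjusted p = 0.512). Socs3, an inhibitor of cytokine signalling, had 5.13 and 4.55 kb of H3K27ac in WT and 0.295 and 2.08 kb in Tg. Its groups did not overlap, and its log2 change was -1.64 ± 0.45 (limma adjusted p = 0.227).

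**Figure D5:**
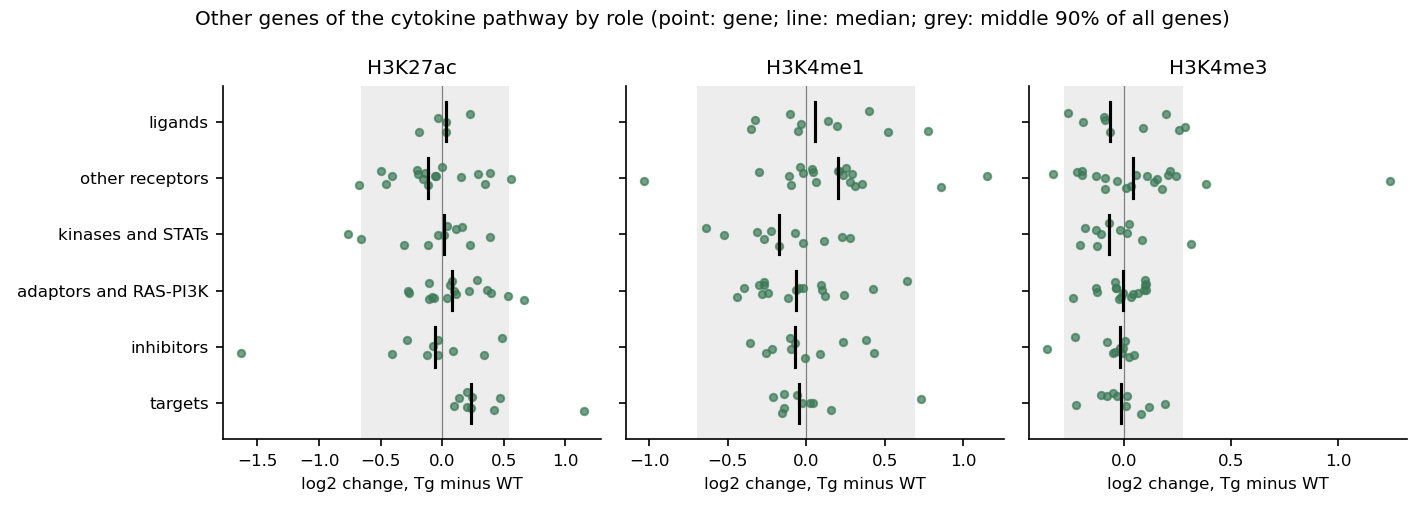
Log2 change in covered length, Tg minus WT (x axis), of the pathway genes tested in each mark, by role (rows); each point is a gene, the black line the median of its role, and the grey band the middle 90% of all genes tested. The median is 0.23 for targets in H3K27ac, 0.20 for other receptors and -0.17 for kinases and STATs in H3K4me1, and in H3K27ac Socs3 is the lowest inhibitor at -1.64.

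Marker lists were read for peaks in each gene's window, which do not measure how many cells of a type the sort held. Of 12 stem and progenitor markers, 10 had enough H3K27ac to be tested, 1, Mpo, rose past the limma threshold, and Cd34 and Slamf1 had none in any library. The call of Mpo depends on the normalization. No gene rose in H3K27ac with scaling to equal total covered length or with no normalization. Of the markers of other lineages, 2 of 8 B-lymphoid, 3 of 8 T-lymphoid, 6 of 9 mast cell and basophil and 4 of 12 endothelial genes were at 0 in H3K27ac in all 4 libraries, beside 35% of all genes. They included Pax5 of B cells, Cd3e, Cd4 and Cd8a of T cells, and Cpa3, Cma1 and Mcpt4 of mast cells. Of endothelium they included Emcn, Esam, Sox17 and Cldn5. At 0 too were 5 of 8 stromal, 4 of 12 erythroid, 2 of 9 megakaryocyte and 2 of 9 monocyte and macrophage genes. Other genes of these lists held H3K27ac. The B-lymphoid list summed to 15.3 and 12.5 kb in WT and 12.4 and 17.2 kb in Tg. The T-lymphoid list had 9.88 and 8.8 kb against 9.65 and 8.79 kb. For mast cells and basophils the sums were 18.9 and 16.2 kb against 13.4 and 10.4 kb. Endothelium also expresses Tek and Procr, and its 12 markers summed to 23.6 and 18.2 kb of H3K27ac in WT and 16 and 18.4 kb in Tg, with 1, Mmrn2, past the threshold as a fall. Of the 6 endothelial markers tested, 4 were higher in Tg, with a median log2 change of 0.36. In H3K4me3, erythroid markers summed by label to 29.8 and 37.6 kb in WT against 47.9 and 40.7 kb in Tg, with 12 of 12 higher and none called. In H3K4me1, 10 of 10 tested erythroid markers were lower in Tg and none was called. The part of these cells in the members' values was not tested.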

How the data were processed

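ChIP-seq for H3K27ac, H3K4me1 and H3K4me3 was run on sorted cKit+ bone marrow cells, and 12 peak lists, 1 per library, were analysed. The build was mm10 and the tools named are MACS2, Bowtie2, SAMtools, deepTools, Trim Galore and FastQC, per the submitters' processing notes. Versions, settings and any control library are not given in the sources used here. Reads were single-end and 75 bp long, per the labels. Each deposited peak carries a score, a ratio (its fold enrichment), and its p-value and q-value on a −log10 scale. The deposited ratio and −log10 values depend on depth, so they were used only within a list. Depth is unknown, since the lists hold no counts.

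The bp covered by peaks in each gene body with 10 kb flanks were taken as log2 after adding 500 bp and quantile normalized within a mark, for genes with a peak in at least 2 of 4 libraries. The genotypes were compared in limma 3.58.1 (R 4.3.3; lmFit and eBayes), adjusted by the Benjamini-Hochberg method over all genes tested, with a threshold of 0.05. The fit was tested on simulated data. Every adjusted p in the text is limma's, and "rose" or "fell" is said only of a gene past the threshold. Regions are merged peaks of the 4 lists of a mark, present with at least 1 bp. Gene positions came from RefSeq GRCm38.p6, which gives no exons here, and starts from the first RefSeq promoter entry of a gene, held for 8 of 9 members. Csf2rb has none. Percentiles of −log10 q are ranks within a library's own list.

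The members and the gene, marker and motif lists were chosen with earlier results of these data known. Named genes are the 9 members, genes whose bodies reach into their windows, 5 other receptors, pathway genes past the threshold, and the genes nearest to each member in covered length. Urad and Eqtn also reach into windows, of Flt3 and Tek, and neither had an H3K27ac peak. No pathway gene passed the threshold. Kitl, Csf2, Il3, Il6, Epo, Flt3l, Gab1, Jak1, Ccnd2, Socs3 and the marker genes fall outside this rule and were chosen after their values were seen. A few genes that the rule names are not reported here. Alternatives changed the normalization, pseudocount, filter, peak threshold, window, block and libraries, 1 at a time.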

Additional observations from a re-analysis of the deposited data

How the results depend on the processing

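No member was called under any alternative, in any mark. Of 336 values of the members' log2 changes under an alternative, 46 changed sign (14 in H3K27ac, 12 in H3K4me1 and 20 in H3K4me3), none past the threshold. The number of H3K27ac genes called, 52, was 3 with scaling to equal total covered length (0 higher and 3 lower in Tg), 1 with no normalization (lower), 9 with a pseudocount of 100 bp, 29 with peaks of −log10 q of at least 5 and 17 with 50 kb flanks. With no filter it was 9, of which 7 rose and 2 fell. Leaving out 1 library gave 0 to 700: 0 without WT replicate 1 (951 at an unadjusted p under 0.05) and without WT replicate 2 (1184), 394 without Tg replicate 1 and 700 without Tg replicate 2, where the lone library is assumed to vary like the other genotype. H3K4me1 gave 1 call with no normalization and 1 with a pseudocount of 2000 bp, and H3K4me3 gave 8 with no filter. The cause was not tested. No normalization moved the median H3K27ac change of all genes to -0.22 and scaling moved it to 0.09.

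Replicate numbers are shared in the labels, but nothing there says that they pair mice. For replicates 1 and 2 of both genotypes, peak names carry the numbers 2 and 3 in H3K27ac and 4 and 3 in H3K4me1. In H3K4me3 they carry the letters F and S. The names do not say how these relate to the mice. Deviations of libraries with the same replicate number correlated by -0.23 in H3K27ac, 0.26 in H3K4me1 and -0.09 in H3K4me3. With the replicate block limma called 47 genes in H3K27ac (13 up and 34 down), 0 in H3K4me1 (1830 at an unadjusted p under 0.05), 0 in H3K4me3 (625) and 0 members.

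Member regions found in all 4 libraries numbered 7 in H3K27ac, 19 in H3K4me1 and 11 in H3K4me3 where peaks had to cover 50% of a region. With 50 kb flanks they numbered 34, 67 and 33. With −log10 q of at least 5 they were 19 in H3K4me1 and 11 in H3K4me3, and without flanks 25 in H3K4me1. Without 1 library the range was 15 to 21, 40 to 49 and 19 to 21.

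Signs of the H3K27ac change turned as follows. Kit gave 0.072 with −log10 q of at least 5, 0.10 for 10 kb around either gene end and -0.60 to 0.20 leaving out 1 library. Flt3 gave 0.30 with 50 kb flanks and -0.48 to 0.17 leaving out 1 library. Csf2ra gave -0.018 with no normalization. Il3ra gave -0.34 with no normalization, -0.017 with −log10 q of at least 5, -0.024 around gene ends, -0.028 with 50 kb flanks and -0.33 to 0.33 leaving out 1 library. In H3K4me1, Kit gave 0.12 around gene ends, 0.12 with 50 kb flanks and -0.26 to 0.21 leaving out 1 library. Flt3 gave -0.019 with 50 kb flanks, Csf2ra -0.30 without flanks and -0.078 with 50 kb flanks, and Il3ra -0.12 with −log10 q of at least 5. Procr gave 0.41 with −log10 q of at least 5, 0.27 with 50 kb flanks and -0.58 to 0.42 leaving out 1 library.

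In H3K4me3, with −log10 q of at least 5, Flt3 gave -0.12, Csf2rb 0.0385, Tek -0.16 and Procr 0.10. Without flanks Csf2rb gave 0.0165, Csf2ra -0.027, Tek -0.0595 and Procr 0.11. With 50 kb flanks Flt3 gave -0.056 and Csf2rb 0.0045. Tek gave -0.21 with scaling and -0.22 with no normalization. Leaving out 1 library gave -0.12 to 0.039 for Kit, -0.27 to 0.44 for Flt3, -0.10 to 0.034 for Csf3r, -0.42 to 0.34 for Csf2rb, -0.045 to 0.16 for Csf2ra, -0.31 to 0.0087 for Il6ra and -0.034 to 0.075 for Tek.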
